A study of Mus musculus with 12 samples.

Results

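The samples described here are the 3 from the closed and the 3 from the open side of the main olfactory epithelium (MOE) of WT mice after unilateral naris occlusion (UNO), 6 of the 12 arrays of the series. They were chosen by their titles, and the features described are the 32615 of 35556 probe sets whose log2 values averaged above 5 over the 12 arrays. In UNO a single nostril is sealed, so that airborne odors no longer reach the epithelium behind it, and the other side of the same nose serves as the comparison. The right nostril was sealed by electrocautery when the mice were 2 weeks old, and each side of the MOE was removed from the medial bone after 3 weeks, at 5 weeks of age by the titles. The age tag of the same samples reads 6 months, and the titles are followed here. The other 6 arrays hold the same sides of H2be-KO mice, whose coding sequence for the histone variant H2be was replaced by a membrane-bound mCherry reporter and whose founders were crossed to C57Bl/6; no strain is given for the WT mice in the sources used here. Each sample pooled a female and a male mouse, 2 in all, by the series description, while the study's legends give a larger pool.

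Most cells of the MOE are olfactory sensory neurons (OSNs), each of which expresses 1 odorant receptor (OR) gene. Odor binding raises cAMP through the adenylyl cyclase Adcy3 and opens a cyclic nucleotide-gated channel that lets calcium in, and the resulting activity sets the level of adhesion and guidance molecules by which OSN axons sort in the olfactory bulb. OSNs are replaced throughout life from basal cells, among sustentacular cells, glands and ciliated cells of the adjoining respiratory lining.

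The median log2 value of an array lay between 7.21 and 7.30. The 6 pairs of WT arrays within a side correlated at r of 0.972 to 0.981, and the 9 pairs that cross the sides at r of 0.971 to 0.983. With 3 arrays a side, a log2 change had a median standard error of 0.134 and a median 95% half-width of 0.293, and the number of arrays limits what could be detected. Each sample is a mixture of cell types, in which fewer cells of a type and less RNA per cell cannot be told apart. The p-values, two-sided, came from limma and were adjusted by Benjamini-Hochberg, and a gene is called where the adjusted p was under 0.05; they measure the spread between these pooled samples.

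Closing a nostril for 3 weeks went with changes in a small share of transcripts. Of 32615 probe sets, 279 (0.855%) were called, 155 (0.475%) for a rise and 124 (0.38%) for a fall on the closed side, and 3045 had an unadjusted p under 0.05. Of 18406 genes other than ORs, 89 (0.484%) rose and 92 (0.5%) fell. Most of these changes were modest, the median being 1.44-fold for rises and 1.52-fold for falls, and 10 higher and 18 lower genes passed 2-fold. In each of the 279 called probe sets the 3 closed arrays lay apart from the 3 open ones, which held for 13.2% of all probe sets. The fit drew its estimate of the spread from all 12 arrays; with the 6 WT arrays alone it called 16 higher and 9 lower genes other than ORs. Of the 181 called genes other than ORs, 58 stayed called whichever of the 12 arrays was left out, 32 higher and 26 lower. Of these 58, 54 were also called with a replicate block, 25 with the 6 WT arrays alone, and all 58 with trend and robust fitting, array weights, quantile normalization and median centring. Below, calls lost with the 6 WT arrays alone are given for genes whose calls otherwise held. Each array that ends a gene's call when left out on its own is named, and WT open 1/3 stands for WT open 1 and WT open 3, each left out alone. Genes named below outside the rule for naming genes were chosen after their values were seen, as were the groups by function in which they stand.

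**Figure D1:**
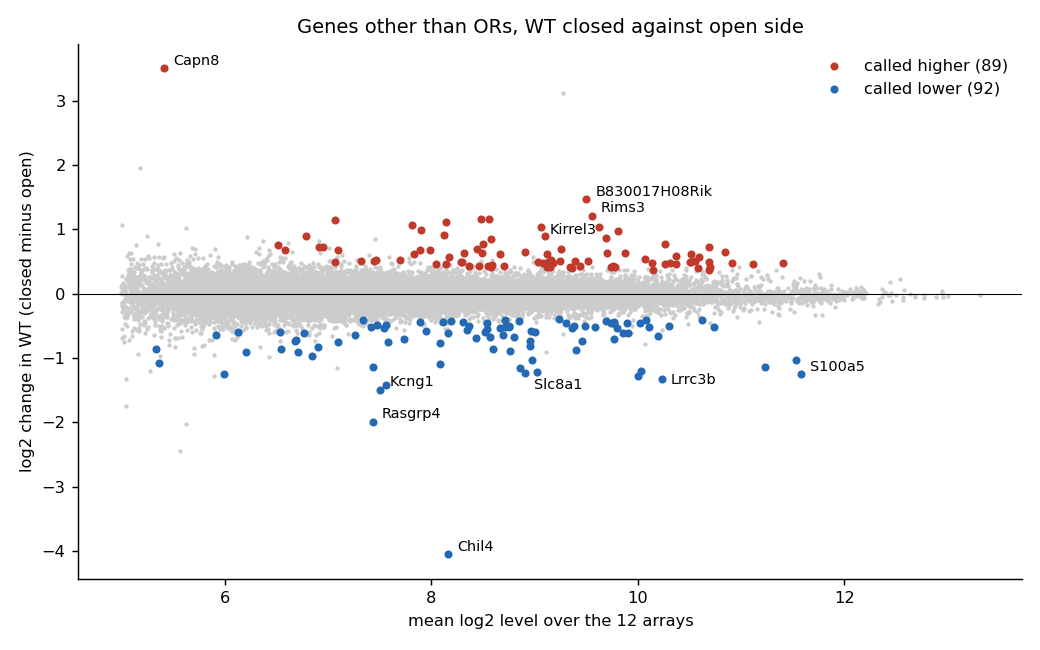
Closed minus open log2 change of WT mice (vertical axis) for 18406 genes other than ORs against their mean log2 level over the 12 arrays (horizontal axis). The 89 genes called higher are red and the 92 called lower are blue; Capn8 and Chil4 lie farthest from 0 among the called genes, and most called genes lie within 2-fold.

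Genes of calcium handling and signalling, with some of their relatives, stood among the called genes in both directions. The Na+/Ca2+ exchanger gene Slc8a1, whose product pumps calcium out of neurons after activity, had log2 levels of 9.56, 9.44 and 9.64 in the open and 8.29, 8.25 and 8.41 in the closed arrays. The sides did not overlap, and the fall was 2.34-fold, a log2 change of -1.23 (standard error 0.09, adjusted p = 0.000102, limma). The EF-hand protein gene S100a5, abundant in OSNs, had log2 levels of 12.28, 12.21 and 12.38 in the open and 11.01, 10.79 and 11.32 in the closed arrays, a log2 change of -1.25 (standard error 0.12, adjusted p = 0.000756, limma). Each closed array lay below every open one. Pcp4l1 fell by 1.03, the endolysosomal cation channel gene Mcoln3 by 0.66 and the potassium-dependent exchanger gene Slc24a2 by 0.61 on the log2 scale. In the opposite direction, 3 genes of cytosolic calcium-binding proteins rose. Secretagogin (Scgn) had log2 levels of 8.99, 9.19 and 9.04 in the open and 9.98, 10.16 and 10.19 in the closed arrays, a log2 change of 1.04 (standard error 0.09, adjusted p = 0.000363, limma). Calretinin (Calb2) had log2 levels of 10.37, 10.38 and 10.27 in the open and 11.08, 11.04 and 11.07 in the closed arrays, a log2 change of 0.72. For both genes every closed array was above every open one, as it was for Necab3, which rose by 1.07 on the log2 scale. The catalytic and the regulatory subunit genes of the calcium-activated phosphatase calcineurin, Ppp3ca and Ppp3r1, rose by 0.59 and 0.50, whereas Nfatc2, a transcription factor that calcineurin activates, fell by 0.74 and the calmodulin-dependent kinase gene Camk4 by 0.59 on the log2 scale. The calls of Slc8a1, S100a5, Pcp4l1, Mcoln3, Scgn, Calb2, Necab3 and Ppp3ca held whichever array was left out, those of Pcp4l1, Mcoln3, Calb2 and Ppp3ca being lost with the 6 WT arrays alone. The other calls were lost: that of Slc24a2 without WT open 3 (highest adjusted p 0.06), that of Nfatc2 without WT open 3 (highest adjusted p 0.0501), that of Ppp3r1 without WT open 1/3 or WT closed 1 (highest adjusted p 0.0617) and that of Camk4 without any array other than KO open 2, WT open 2 or WT closed 3 (highest adjusted p 0.155).

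**Figure D2:**
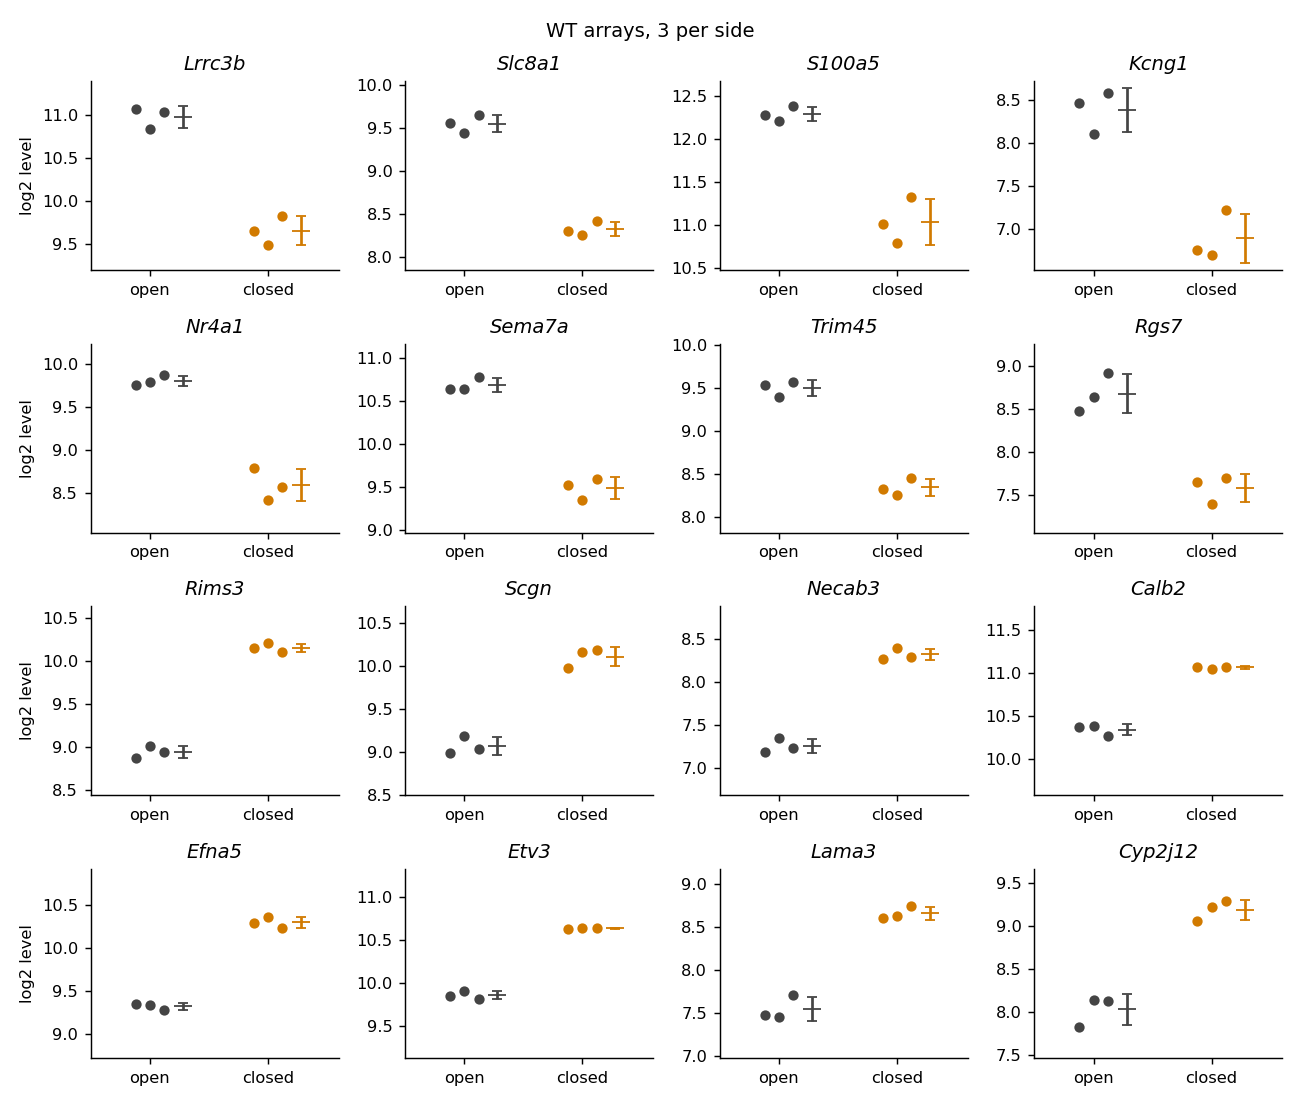
Log2 level (vertical axes, each spanning the same range of log2 units) of 16 genes in the 3 open and 3 closed WT arrays. Each point is an array, and the mean with its SD (n = 3) stands to the right; the first 8 genes are lower and the last 8 higher in every closed array than in every open array.

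Ion channel genes also moved in both directions. Kcng1, a modifier subunit of voltage-gated potassium channels, had log2 levels of 8.46, 8.10 and 8.58 in the open and 6.76, 6.70 and 7.22 in the closed arrays, a fall of 2.81-fold (log2 change -1.49, standard error 0.19, adjusted p = 0.00301, limma). Kcnmb3, an auxiliary subunit of calcium-activated potassium channels, had log2 levels of 10.76, 10.50 and 10.88 in the open and 9.40, 9.25 and 9.67 in the closed arrays, a log2 change of -1.28 (standard error 0.12, adjusted p = 0.000588, limma). No closed array of either gene reached the lowest open one. Scn4b, Scn3b and Scn3a, which encode a pair of beta subunits and a pore of voltage-gated sodium channels, fell by 0.74, 0.52 and 0.59 on the log2 scale, and the calcium-activated potassium channel gene Kcnn2 fell by 0.53. The pacemaker channel gene Hcn2, the background potassium channel gene Kcnk10 and the presynaptic calcium channel gene Cacna1b rose by 0.52, 0.51 and 0.53. The list of voltage-gated ion channels also held Kcnk10 and Kcnn2, but not Kcng1, Kcnmb3, Scn4b or Scn3b. Of its 31 measured genes, 3 rose, 2 fell and 26 did not pass. The median log2 change was -0.02, against -0.01 over all genes other than ORs. At an unadjusted p under 0.05 in limma, 5 of the list were higher and 11 lower. Over all genes other than ORs, 4.25% were higher and 5.58% lower at that level. The calls of Kcng1, Kcnmb3 and Scn4b held whichever array was left out, that of Scn4b being lost with the 6 WT arrays alone. The others were lost: that of Scn3b without WT open 1/3 or WT closed 1/2 (highest adjusted p 0.0659), that of Scn3a without any array other than WT open 2 (highest adjusted p 0.165), that of Kcnn2 without WT open 1/3 (highest adjusted p 0.0592), that of Hcn2 without KO closed 2, WT open 1/3 or WT closed 1/2/3 (highest adjusted p 0.133), that of Kcnk10 without WT open 1/3 or WT closed 1/2 (highest adjusted p 0.0749) and that of Cacna1b without WT open 1/3 or WT closed 1/2 (highest adjusted p 0.0857).

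Of 30 genes of synaptic transmission measured, 3 rose, 4 fell and 23 did not pass, with a median log2 change of -0.16 and 9 positive changes; at an unadjusted p under 0.05 there were 4 higher and 11 lower ones. Over all genes other than ORs, 4.25% were higher and 5.58% lower at that level. The genes described next were picked among the called ones. Rims3, a protein of the presynaptic active zone, had log2 levels of 8.87, 9.01 and 8.95 in the open and 10.15, 10.21 and 10.11 in the closed arrays, a log2 change of 1.21 (standard error 0.08, adjusted p = 7.5e-05, limma), with the lowest closed array more than 1 log2 unit above the highest open one. The gene of Chgb, a granin of peptide-storing dense-core vesicles, had log2 levels of 7.13, 7.05 and 7.24 in the open and 6.46, 6.39 and 6.44 in the closed arrays, a log2 change of -0.71 (standard error 0.10, adjusted p = 0.00489, limma), with no overlap of the sides. Ptprn, a membrane protein of the same vesicles, had log2 levels of 6.75, 6.40 and 7.01 in the open and 5.49, 5.08 and 5.86 in the closed arrays, a log2 change of -1.24 (standard error 0.19, adjusted p = 0.0109, limma), and Scg3 fell by 0.45 on the log2 scale. Syn2, a synapsin that tethers vesicles, Cplx2, which clamps their fusion, and the endocytic GTPase gene Dnm1 fell by 0.52, 0.45 and 0.49. The vesicular transporter gene Slc6a17 and the vesicle membrane gene Syngr1 fell by 0.73 and 0.45. The calls of Rims3, Chgb and Slc6a17 held whichever array was left out, those of Chgb and Slc6a17 being lost with the 6 WT arrays alone. The others were lost: that of Ptprn without WT open 1/3 (highest adjusted p 0.0607), that of Scg3 without any array other than WT closed 3 (highest adjusted p 0.179), that of Syn2 without any WT array other than WT open 1 (highest adjusted p 0.109), that of Cplx2 without any array other than KO open 2/3, KO closed 1 or WT open 2 (highest adjusted p 0.136), that of Dnm1 without WT open 1/3 or WT closed 2 (highest adjusted p 0.0659) and that of Syngr1 without any array other than KO open 1/2/3 or KO closed 1 (highest adjusted p 0.125).

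Of 24 cyclic nucleotide phosphodiesterases and kinases measured, Pde4a and Pde4d rose, Camk4 fell and 21 did not pass (median log2 change -0.00). At an unadjusted p under 0.05 in limma, 4 of the list were higher and 2 lower. Over all genes other than ORs, 4.25% were higher and 5.58% lower at that level. Further called genes act in G protein and lipid signalling and were picked for their calls. Rgs7, which speeds the shut-off of G proteins, had log2 levels of 8.48, 8.64 and 8.93 in the open and 7.65, 7.40 and 7.70 in the closed arrays, a log2 change of -1.10 (standard error 0.13, adjusted p = 0.00278, limma). Plcxd3, of a family related to phospholipase C, had log2 levels of 8.32, 8.15 and 8.46 in the open and 6.82, 6.74 and 7.14 in the closed arrays, a log2 change of -1.41 (standard error 0.12, adjusted p = 0.000182, limma). The Ras exchange factor gene Rasgrp4 had log2 levels of 8.62, 8.18 and 9.17 in the open and 6.81, 5.92 and 7.28 in the closed arrays, a fall of 3.96-fold (log2 change -1.99, standard error 0.31, adjusted p = 0.0113, limma). For all 3 genes the highest closed array was below the lowest open one, and Rasgrp4 varied most within a side. Rgs20 fell by 0.64 and the beta-arrestin gene Arrb2 by 0.42 on the log2 scale. The cAMP phosphodiesterase gene Pde4d rose, with log2 levels of 7.64, 7.62 and 7.69 in the open and 8.40, 8.23 and 8.39 in the closed arrays, a log2 change of 0.69 (standard error 0.09, adjusted p = 0.00307, limma). Every closed array of Pde4d lay above the open ones. The calls of Rgs7, Plcxd3 and Pde4d held whichever array was left out, those of Rgs7 and Pde4d being lost with the 6 WT arrays alone. The others were lost: that of Rasgrp4 without WT open 1/3 (highest adjusted p 0.0592), that of Rgs20 without any WT array (highest adjusted p 0.13), that of Arrb2 without any array other than WT open 2 (highest adjusted p 0.196), that of Pde4a without any WT array (highest adjusted p 0.107) and that of Camk4 without any array other than KO open 2, WT open 2 or WT closed 3 (highest adjusted p 0.155).

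Adhesion, guidance and matrix genes were called in both directions. Sema7a, a membrane-anchored semaphorin of OSN axons, had log2 levels of 10.65, 10.64 and 10.79 in the open and 9.52, 9.35 and 9.60 in the closed arrays, a fall of 2.29-fold (log2 change -1.20, standard error 0.09, adjusted p = 0.000157, limma), and the secreted semaphorin gene Sema3e fell by 0.68 on the log2 scale. Efna5, an ephrin that sorts axons by repulsion, had log2 levels of 9.35, 9.34 and 9.28 in the open and 10.29, 10.36 and 10.23 in the closed arrays, a log2 change of 0.98. The sides of Sema7a and Efna5 did not overlap, Sema7a being lower and Efna5 higher in each closed array. Kirrel3, an immunoglobulin-type adhesion molecule by which like axons meet, had log2 levels of 8.57, 8.51 and 8.51 in the open and 9.59, 9.57 and 9.55 in the closed arrays. Its relative Kirrel2 fell by 1.15 on the log2 scale. The leucine-rich repeat gene Lrrc3b had log2 levels of 11.07, 10.84 and 11.04 in the open and 9.66, 9.49 and 9.83 in the closed arrays. Kirrel3 was thus higher and Lrrc3b lower in each closed array. The laminin chain gene Lama3, a part of basement membranes, rose from log2 levels of 7.47, 7.45 and 7.70 to 8.60, 8.62 and 8.74, a log2 change of 1.11 (standard error 0.11, adjusted p = 0.000858, limma). The cadherin gene Cdh3 rose by 0.73 and Mdga2, an inhibitor of synapse adhesion, by 0.85, and the neurexin relative Cntnap4 fell by 0.97 on the log2 scale. Each of these 10 genes stayed called whichever array was left out, the calls of Sema3e, Kirrel2, Cdh3 and Cntnap4 being lost with the 6 WT arrays alone. Of 28 activity-linked OSN genes, a list made with earlier results of these arrays known, 3 rose, 9 fell and 16 did not pass; among those were the semaphorin receptor gene Nrp1 (log2 change -0.09, adjusted p = 0.918, limma) and its ligand Sema3a (-0.29, adjusted p = 0.281, limma).

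Among transcription factors, those induced by neuronal activity were lower or did not pass. Nr4a1, a nuclear receptor whose transcript appears within minutes of neuronal firing, had log2 levels of 9.76, 9.79 and 9.86 in the open and 8.78, 8.42 and 8.57 in the closed arrays. The sides lay about 1 log2 unit apart at their nearest, a fall of 2.32-fold (log2 change -1.21, standard error 0.15, adjusted p = 0.00335, limma). Npas4, a factor that calcium influx induces in neurons, had log2 levels of 6.43, 6.31 and 6.23 in the open and 5.45, 5.88 and 5.70 in the closed arrays, a log2 change of -0.65 (standard error 0.11, adjusted p = 0.0248, limma), with no overlap. Of 23 immediate early genes measured, these 2 fell, 0 rose and 21 did not pass. Over all genes other than ORs, 0.5% were called lower and 0.484% higher. At an unadjusted p under 0.05 in limma, 6 of the list were lower and 1 higher. The shares over all genes other than ORs at that level were 5.58% and 4.25%. Fos and Egr1, the most used marks of firing, had log2 changes of -0.49 (adjusted p = 0.606, limma) and -0.49 (adjusted p = 0.533, limma), Arc had 0.21 (adjusted p = 0.818, limma), and the median of the list was -0.17, with 8 positive changes. Other factor genes were called in both directions. Nfatc2 fell, as given above, and those described next, picked for their calls, rose. The ETS factor gene Etv3 had log2 levels of 9.85, 9.91 and 9.82 in the open and 10.63, 10.65 and 10.64 in the closed arrays, a log2 change of 0.78 (standard error 0.07, adjusted p = 0.000564, limma), and the T-box gene Eomes rose by 0.69 on the log2 scale. Closed arrays of both lay within 0.05 log2 units of each other. Rfx4 and the cell cycle factor E2f1 rose by 0.90 and 0.69. The calls of Nr4a1, Etv3 and Eomes held whichever array was left out, that of Eomes being lost with the 6 WT arrays alone, and the others were lost: that of Npas4 without any WT array other than WT closed 2 (highest adjusted p 0.12), that of Rfx4 without WT open 1/3 or WT closed 1/2 (highest adjusted p 0.0857) and that of E2f1 without any WT array other than WT open 2 (highest adjusted p 0.107).

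Many genes that neurons switch on with activity carry in their promoters the cAMP response element (CRE), TGACGTCA, to which CREB binds when cAMP or calcium rises. Promoter windows from 250 bases before to 50 bases after the transcription start, taken from RefSeq (GRCm38.p6), were found for 146 of the 181 called genes other than ORs. The CRE stood in 7 of 74 genes that fell (9.46%), in 2 of 72 that rose (2.78%), in 2.94% of 14334 measured genes other than ORs and in 1.79% of all 32851 windows; the letters read the same on both strands. The 7 genes that fell were Atg16l2, Celf3, Chgb, Dio2, Ptprs, Syn1 and Trp53inp2, of which Celf3, Chgb and Dio2 stayed called whichever array was left out, though not with the 6 WT arrays alone. The calls of the others were lost: that of Atg16l2 without any array other than KO closed 1 or WT open 2 (highest adjusted p 0.171), that of Ptprs without any array other than KO closed 1 (highest adjusted p 0.134), that of Syn1 without any array other than KO closed 1 or WT open 2 (highest adjusted p 0.154) and that of Trp53inp2 without any array other than WT open 2 (highest adjusted p 0.184). Its core TGACG, searched on both strands and so also found within the CRE, stood in 32.4% of genes that fell, 29.2% of those that rose and 29.8% of measured genes other than ORs. On both strands, TGANTCA (AP-1, where Fos proteins bind) stood in 6.76%, 5.56% and 7.52%, and the motif of the EBF factors of OSNs (TCCC and GGGA parted by any 2 bases) in 2.7%, 1.39% and 1.24%, in the same order. These shares describe letters in a window and were not tested, and binding was not measured. The windows of these 3 genes, and of Nr4a1 for comparison, are Chgb at chr2:132781392-132781691 (+ strand), Celf3 at chr3:94484077-94484376 (+ strand), which is 1 of its 3 annotated windows with the CRE, Dio2 at chr12:90738989-90739288 (- strand) and Nr4a1 at chr15:101266596-101266895 (+ strand). They are shown 5′ to 3′ on the strand of the gene, with capitals for the CRE in Chgb, Celf3 and Dio2 and for the core, as CGTCA, in Nr4a1.
Chgb: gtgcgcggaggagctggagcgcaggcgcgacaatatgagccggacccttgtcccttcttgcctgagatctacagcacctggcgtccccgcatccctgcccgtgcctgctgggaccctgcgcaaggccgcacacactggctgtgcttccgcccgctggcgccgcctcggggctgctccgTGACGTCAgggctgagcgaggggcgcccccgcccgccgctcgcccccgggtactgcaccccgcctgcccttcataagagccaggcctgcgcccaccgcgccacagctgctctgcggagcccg
Celf3: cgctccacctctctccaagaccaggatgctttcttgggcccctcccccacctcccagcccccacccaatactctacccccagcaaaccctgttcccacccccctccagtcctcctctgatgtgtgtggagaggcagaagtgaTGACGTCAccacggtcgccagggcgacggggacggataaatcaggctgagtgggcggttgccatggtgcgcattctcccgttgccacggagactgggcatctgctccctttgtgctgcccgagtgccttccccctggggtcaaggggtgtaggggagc
Dio2: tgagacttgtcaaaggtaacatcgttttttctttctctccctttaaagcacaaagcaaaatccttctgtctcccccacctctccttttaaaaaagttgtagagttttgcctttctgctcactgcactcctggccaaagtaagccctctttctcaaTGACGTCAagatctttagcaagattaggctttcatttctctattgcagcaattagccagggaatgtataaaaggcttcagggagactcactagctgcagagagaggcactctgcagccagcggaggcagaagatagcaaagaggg
Nr4a1: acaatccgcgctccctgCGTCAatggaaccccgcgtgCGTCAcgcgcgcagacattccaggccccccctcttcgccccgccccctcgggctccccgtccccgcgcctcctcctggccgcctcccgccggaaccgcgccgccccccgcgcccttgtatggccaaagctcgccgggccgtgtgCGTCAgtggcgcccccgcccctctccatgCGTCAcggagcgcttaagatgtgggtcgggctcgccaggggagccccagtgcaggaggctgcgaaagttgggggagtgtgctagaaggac
In Chgb, a granin of dense-core vesicles, the CRE began 72 bases before the start, in Celf3, an RNA-binding protein of neurons, 108 bases before it, and in Dio2, the deiodinase that activates thyroid hormone, 95 bases before it. Nr4a1 held 4 copies of the core and no complete CRE in this window. The log2 levels were 9.43, 9.28 and 9.50 in the open and 8.53, 8.60 and 8.67 in the closed arrays for Celf3 and 8.45, 8.27 and 8.49 in the open and 7.75, 7.45 and 7.70 in the closed arrays for Dio2, and each gene's sides were apart. Their log2 changes were -0.81 (standard error 0.09, adjusted p = 0.00184, limma) and -0.77 (standard error 0.11, adjusted p = 0.0053, limma).

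The widest called changes were a fall of a secreted epithelial protein and a rise of a protease. Chil4, a chitinase-like protein secreted by airway epithelium, had log2 levels of 10.92, 9.14 and 8.63 in the open and 5.26, 5.42 and 5.85 in the closed arrays, a fall of 16.6-fold (log2 change -4.06, standard error 0.76, adjusted p = 0.0335, limma). The open arrays themselves spread over more than 2 log2 units, and each lay well above the closed ones. The protease gene Capn8 had log2 levels of 2.23, 4.32 and 3.57 in the open and 6.94, 6.80 and 6.91 in the closed arrays, a log2 change of 3.51 (standard error 0.38, adjusted p = 0.00119, limma). Its open WT arrays all lay under the filter level of 5 and spread over more than 2 log2 units, while the closed ones nearly coincided. The open arrays of H2be-KO mice also lay under 5 (mean 4.38). Capn8 thus passed the filter only through the closed arrays, and its change and p-value carry that limit. The transcript B830017H08Rik changed with little spread, from log2 levels of 8.80, 8.72 and 8.66 in the open and 10.20, 10.20 and 10.20 in the closed arrays, a log2 change of 1.47 (standard error 0.08, adjusted p = 1.3e-05, limma). Its 3 closed arrays were nearly equal and all far above the open ones. Entpd2, which breaks down extracellular ATP, rose by 1.14, the cytochrome P450 gene Cyp2j12 by 1.16, the zinc finger gene Zfp78 by 1.17, the DNA repair gene Fanca by 0.91 and the growth factor gene Bmp6 by 0.69 on the log2 scale. The ubiquitin ligase gene Trim45 fell by 1.15 and Fxyd2, a regulator of the sodium pump, by 1.14, and the membrane protein gene Tmem200c rose by 0.99. Each of these genes but Chil4 stayed called whichever array was left out, the calls of Capn8, Bmp6 and Fxyd2 being lost with the 6 WT arrays alone. For Chil4 the call was lost without any array other than KO open 1 or KO closed 1/2/3 (highest adjusted p 0.132). A change of similar size was not called: 5430401F13Rik had log2 levels of 9.72, 6.80 and 8.96 in the open and 11.72, 10.85 and 12.26 in the closed arrays, a log2 change of 3.12 (standard error 0.99, adjusted p = 0.264, limma), with no overlap of the sides.

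Markers of mature OSNs and of their transduction cascade were mostly uncalled, with positive medians, and those of immature OSNs had a negative one. Omp, by which mature OSNs are usually recognised, had log2 levels of 12.67, 12.57 and 12.56 in the open and 12.53, 12.59 and 12.65 in the closed arrays. The sides overlapped, and its log2 change of -0.01 turned in sign with other scalings. Of 17 mature OSN markers, Cnga4, a subunit of the transduction channel, rose by 0.37, Kcnmb3 fell, and 15 did not pass, with a median log2 change of 0.16. Over the cascade from receptor to channel, 2 of 18 genes, Cnga4 and Pde4a, rose and 0 fell, and the median was 0.23; Cnga2 and Adcy3 both changed by 0.26 (adjusted p = 0.221 and 0.185, limma). At an unadjusted p under 0.05 in limma, 11 genes of that cascade were higher and 0 lower. Of the mature OSN markers, 8 were higher and 2 lower. Over all genes other than ORs, 4.25% were higher and 5.58% lower at that level. Among immature OSN markers there were 3 of 18 changes positive and the median was -0.24, with 10 genes lower and 0 higher at that level; the G protein subunit gene Gng8 fell by 0.54 on the log2 scale, and Gap43, which growing axons use, changed by -0.28 (adjusted p = 0.191, limma). Calls were lost for all 3: that of Cnga4 without any array (highest adjusted p 0.196), that of Pde4a without any WT array (highest adjusted p 0.107) and that of Gng8 without WT open 1/3 or WT closed 2/3 (highest adjusted p 0.0761). Basal stem cell and progenitor genes held 0 calls among 17 (median -0.12, limma unadjusted p under 0.05 in 1 higher and 3 lower genes). Cell division genes held 0 among 25, with 4 of the changes positive (median -0.17, limma unadjusted p under 0.05 in 0 higher and 7 lower genes). The progenitor factor gene Insm1 had a log2 change of -0.30 (adjusted p = 0.123, limma) and Rrm2, needed for DNA synthesis, of -0.37 (adjusted p = 0.149, limma). The probe set annotated to H2be (H2bc21 in current annotation) had a log2 change of 0.13 in WT mice (adjusted p = 0.671, limma). Its mean log2 level was 11.58 and 11.71 in the open and closed arrays of WT mice and 11.32 and 11.44 in those of H2be-KO mice, which lack the H2be coding sequence, and where its probes lie is not known here, so that it serves neither as a measure of H2be nor as a check of the labels.

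Markers of the other cells in the tissue held few calls. Over all genes other than ORs, 0.484% were called higher and 0.5% lower. Few or no calls in lists this small therefore say little about these cells. At an unadjusted p under 0.05 in limma, 4.25% of all genes other than ORs were higher and 5.58% lower. Sustentacular cell markers averaged a log2 level of 10.80 to 10.93 in the open and 10.82 to 10.85 in the closed arrays, macrophage and myeloid markers 7.41 to 7.62 in the open and 7.52 to 7.60 in the closed arrays, and bone, cartilage, muscle and stroma markers 8.84 to 9.02 in the open and 8.95 to 9.02 in the closed arrays. None of the 12, 18 and 21 measured genes was called, and 0 passed even an unadjusted p of 0.05 in limma. Lymphocyte and plasma cell markers (0 of 10 called, 2 unadjusted), blood and vessel markers (0 of 9, 0 unadjusted) and cytokines, chemokines and interferon-induced genes (0 of 30, 1 unadjusted) had medians between -0.04 and 0.07 on the log2 scale. The markers of olfactory ensheathing glia, which wrap OSN axons, had a median of -0.12 with 0 of 10 called. At an unadjusted p under 0.05 in limma, 0 of these glia markers were higher and 3 lower. The myelin gene Mbp came nearest to a call, with a log2 change of -0.46 (adjusted p = 0.0777, limma). Motile cilia genes, which mark respiratory ciliated cells, averaged 8.19 to 8.36 in the open and 8.37 to 8.59 in the closed arrays, with 20 of 24 changes positive and a median of 0.15. At an unadjusted p under 0.05 in limma, 4 of these cilia genes were higher and 0 lower. The dynein arm gene Dnaic2 was the 1 of them called, with log2 levels of 8.48, 8.25 and 8.30 in the open and 9.14, 8.84 and 8.88 in the closed arrays and a log2 change of 0.61; the call was lost without any array other than KO open 2/3 or KO closed 1/2/3 (highest adjusted p 0.125). Odorant-metabolizing enzymes (0 of 30 called), respiratory chain genes (0 of 22), apoptosis genes (0 of 14), histone and chromatin genes (0 of 18), genes of OR choice and export (0 of 21) and neurotransmitter receptors (0 of 25) had medians from -0.11 to 0.07; nearest to a call among them was Bcl2l11, which promotes cell death, with a log2 change of -0.52 (adjusted p = 0.119, limma). At an unadjusted p under 0.05 in limma, these lists held 1, 0, 1, 1, 2 and 2 higher genes in that order. The lower genes at that level were 1, 0, 3, 2, 0 and 0. Among mucus, gland and defence proteins, Chil4 alone was called of 37 (median -0.06), among microvillous, tuft cell and ionocyte genes Entpd2 alone of 13 (median -0.05), and among Wnt, Notch, neurotrophin and BMP genes Bmp6 alone of 26 (median -0.03). In that order these lists held 0, 1 and 4 higher and 1, 0 and 2 lower genes at an unadjusted p under 0.05 in limma. Of 3 sex-linked genes, 0 were called (0 unadjusted, limma; median -0.09). The part of the other cell types in the changes of single genes was not tested.

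**Figure D3:**
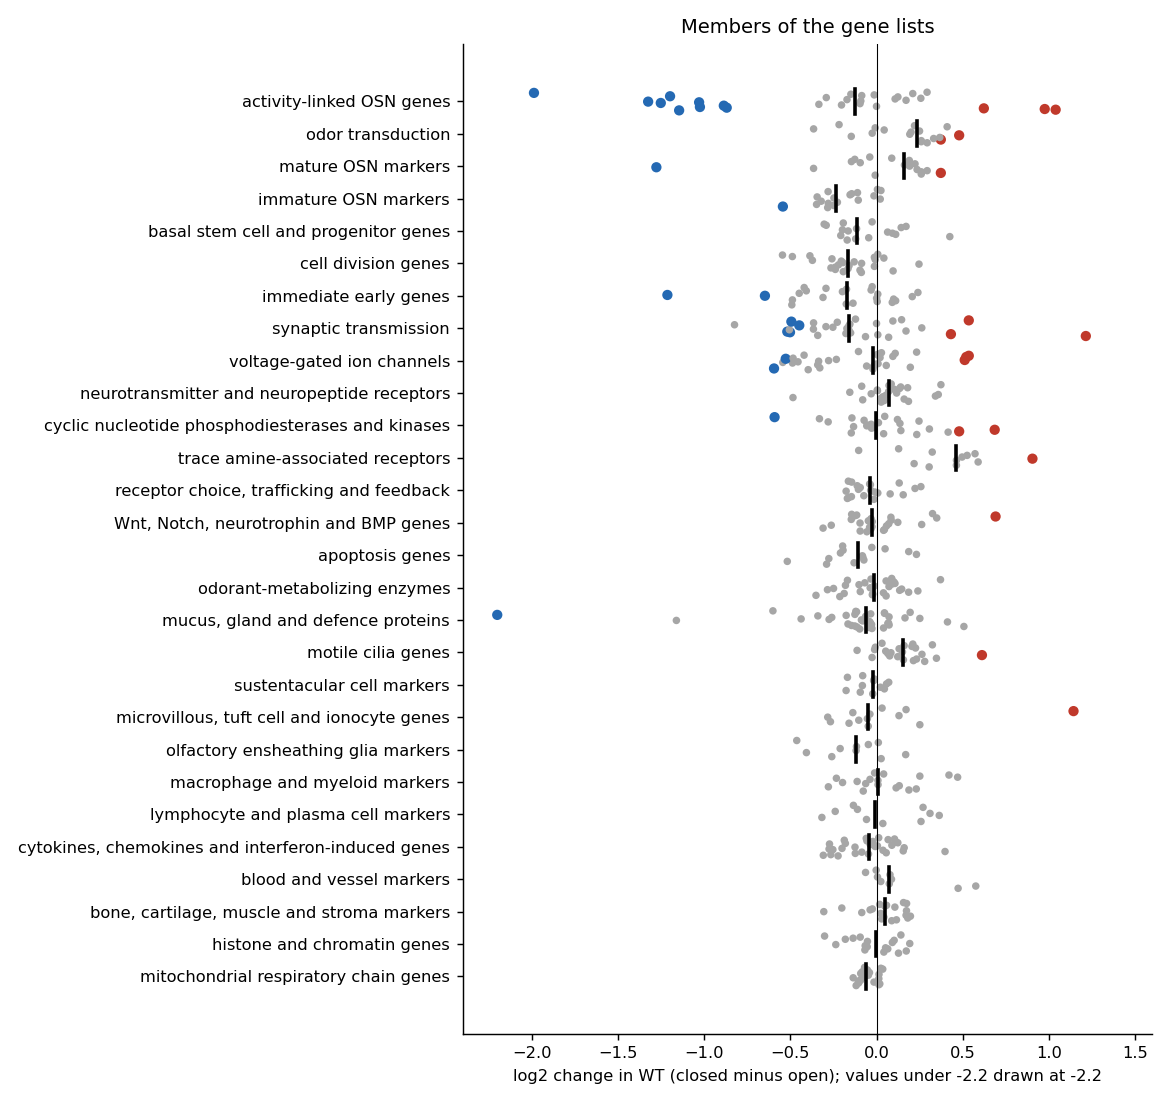
Log2 change in WT mice (horizontal axis, closed minus open side) of each measured member of 28 gene lists (rows). Red and blue points were called higher and lower, grey points were not called, and the black bar is the median of the list; Chil4, at -4.06, is drawn at the left edge. Trace amine-associated receptors lie farthest to the right and immature OSN markers farthest to the left by their medians.

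Calls were also found among chemoreceptor genes. Among trace amine-associated receptors, a small receptor family used by its own OSNs, Taar7b had log2 levels of 8.71, 8.79 and 8.61 in the open and 9.57, 9.60 and 9.66 in the closed arrays, and its call held whichever array was left out (log2 change 0.90, standard error 0.10, adjusted p = 0.00114, limma). Every closed array was above every open one. The other 11 measured members did not pass, 10 of them with positive changes, and the family median was 0.46 on the log2 scale; its Taar7 members can share probe sequence. Of 984 OR genes, 90 (9.15%) rose and 38 (3.86%) fell when p-values were adjusted over ORs, 128 in all (13%). In 127 of these the sides did not overlap, which a call made on the same values favours and which adds no separate support. The sides lay apart in 13.2% of all probe sets, and the share over all 984 ORs was not counted. Whichever array was left out, 47 rises and 15 falls of ORs stayed called, and 35 and 12 of these also with the 6 WT arrays alone. The median log2 change over all 984 was 0.01 and 51.9% of the changes were positive, against 47.6% among other genes, and at an unadjusted p under 0.05 there were 252. With p-values adjusted over all probe sets, as for the other genes, 37 ORs were higher and 11 lower. Related ORs can share probe sequence, so that a single value may mix receptors.

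Among called ORs, 4 falls and 1 rise passed 2-fold. Olfr1313 had log2 levels of 7.09, 7.09 and 7.32 in the open and 5.59, 4.84 and 5.92 in the closed arrays, a log2 change of -1.72 (standard error 0.22, adjusted p over ORs = 0.000591, limma). Olfr1325 had log2 levels of 8.20, 8.20 and 8.33 in the open and 6.82, 6.73 and 7.33 in the closed arrays, a log2 change of -1.28 (standard error 0.15, adjusted p over ORs = 0.000402, limma). The open arrays of both lay close together and above the closed ones, which spread over more. Olfr827 fell by 1.07 and Olfr855 by 1.04 on the log2 scale, the latter from open arrays at 6.02, 5.90 and 6.52. The next falls, of Olfr1062, Olfr522, Olfr308, Olfr654, Olfr917 and Olfr1251, ran from 0.69 to 0.64. Upward, Olfr1414 had log2 levels of 7.28, 7.12 and 7.25 in the open and 8.49, 8.34 and 8.44 in the closed arrays, a log2 change of 1.21 (standard error 0.09, adjusted p over ORs = 1.5e-05, limma), and no other OR rose by 2-fold. Olfr711 had log2 levels of 8.37, 8.30 and 8.15 in the open and 9.10, 9.26 and 9.39 in the closed arrays, a log2 change of 0.98. Closed arrays of both were all above the open ones, with little spread. Olfr67, Olfr1416, Olfr398, Olfr1368, Olfr1508, Olfr1336, Olfr370 and Olfr204 were the others among the 10 largest rises without overlap, with changes from 0.73 to 0.98. Olfr341 was called with a change of 0.83, but an open array at 5.79 overlapped the closed ones at 5.99, 5.78 and 5.91. With the 6 WT arrays alone, the calls of Olfr522 and Olfr654 were lost. Of these ORs, 4 lost their calls over ORs as single arrays were left out: that of Olfr855 without WT open 1/3 or WT closed 1/2 (highest adjusted p over ORs 0.1), that of Olfr1062 without WT open 1/3 or WT closed 1/2 (highest adjusted p over ORs 0.104), that of Olfr917 without WT open 1/3 or WT closed 1 (highest adjusted p over ORs 0.069) and that of Olfr341 without any array other than KO open 2 or WT open 2 (highest adjusted p over ORs 0.157).

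The direction of change went with the level of the OR. Of 82 ORs with a mean log2 level from 5 to 6, 3.66% were called higher and 4.88% lower, and their median log2 change was -0.09. From 6 to 7 the shares were 4.62% and 4.31% of 325, and from 7 to 8 6.5% and 3.95% of 354. From 8 to 9 they were 19.9% and 3.41% of 176, with a median change of 0.12. Above 9, 14 of 47 ORs (29.8%) were higher and 0 were lower, and the median change was 0.19. Higher calls thus became more frequent with level and lower calls did not. The median standard error fell over the same bands from 0.20 to 0.10, which makes calls of either direction easier at high levels; its part in the trend was not tested. Levels of different probe sets also reflect their probes and do not rank the ORs by expression.

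OR genes lie in clusters, and neighbours changed more alike than ORs farther apart. Ordered along the chromosomes by RefSeq, the log2 changes of adjacent measured ORs correlated with r = 0.20 over 967 pairs, against 0.07 for ORs that were 2 genes apart, 0.06 at 5, 0.07 at 20 and 0.10 at 40; these pairs share the 6 arrays, and neighbours are often related in sequence, so the values are a description. Both members of 28 adjacent pairs were called, 21 higher together, 3 lower together and 4 in opposite directions. Of the 90 higher ORs 37 (41.1%) had a higher OR next to them, as had 13.9% of the uncalled ORs, whereas 6 of the 38 lower ORs (15.8%) had a lower OR next to them, against 7.13% of the uncalled. Unbroken runs numbered 19, of which 16 were higher. The longest, Olfr805 to Olfr808 on chromosome 10, held 4 ORs with rises from 0.40 to 0.59 on the log2 scale. Olfr6, Olfr711 and Olfr2 on chromosome 7 rose together by 0.57 to 0.98, and so did Olfr1414 and Olfr1416 on chromosome 1; a further probe set shared by those 2 and Olfr1415 also rose, by 0.87. Runs of lower ORs were pairs: Olfr522 with Olfr523, Olfr303 with Olfr304 and Olfr1246 with Olfr1247. Values in parentheses below are the highest adjusted p over ORs (limma). Olfr806 lost its call without WT open 1/3 or WT closed 3 (0.0666). Olfr807 lost it without any array but KO open 1/2 or WT open 2 (0.157). Olfr303 lost it without WT open 1/3 or WT closed 1/2 (0.0858). Olfr304 lost it without any WT array but WT open 2 (0.114). Olfr1246 lost it without any WT array but WT closed 3 (0.0733). Olfr1247 lost it without any WT array but WT open 3 (0.123).

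Chromosome 2 holds 261 of the measured ORs, and their changes in WT mice were summarised by stretches. In blocks of 25 neighbouring ORs, the last of 36, the median log2 change was negative in the first 5 blocks, Olfr338 to Olfr1138, and lowest (-0.19) in the block from Olfr1062 to Olfr1107, where 4 ORs were lower and 0 higher. It was positive in the 5 blocks that follow, up to 0.16 from Olfr1215 to Olfr1246, where 20 of 25 changes were positive, 4 ORs were higher and 1 lower. In H2be-KO mice the medians were positive in blocks 1, 2 and 5 (0.06, 0.01 and 0.04) and negative in blocks 3 and 4 (-0.10 and -0.10). There block 6 had -0.002, and blocks 7 to 10 had 0.03, 0.09, 0.06 and 0.12. The split by sign seen in WT mice thus recurred only in part. The median level of a block lay between 6.58 and 7.18 in blocks 1 to 6 and between 7.85 and 8.31 in the last 4. The sixth block had a median change of 0.07, with 14 of 25 changes positive, 1 OR higher and 1 lower. Whether the sign of a block goes with its level or its position was not tested. Chromosome 14 had 8 higher and 0 lower ORs of 34 (median change 0.17), chromosome 13 4 and 0 of 11 (median 0.16), and chromosome 1 6 and 0 of 26, with a median of -0.05. Chromosome 19 had 1 higher and 4 lower of 56 (median -0.08), and chromosome X 0 higher and 2 lower of 6 (median -0.26). Chromosome 2 as a whole had 19 higher (7.28%) and 13 lower ORs (4.98%). Whether chromosomes differ was not tested.

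**Figure D4:**
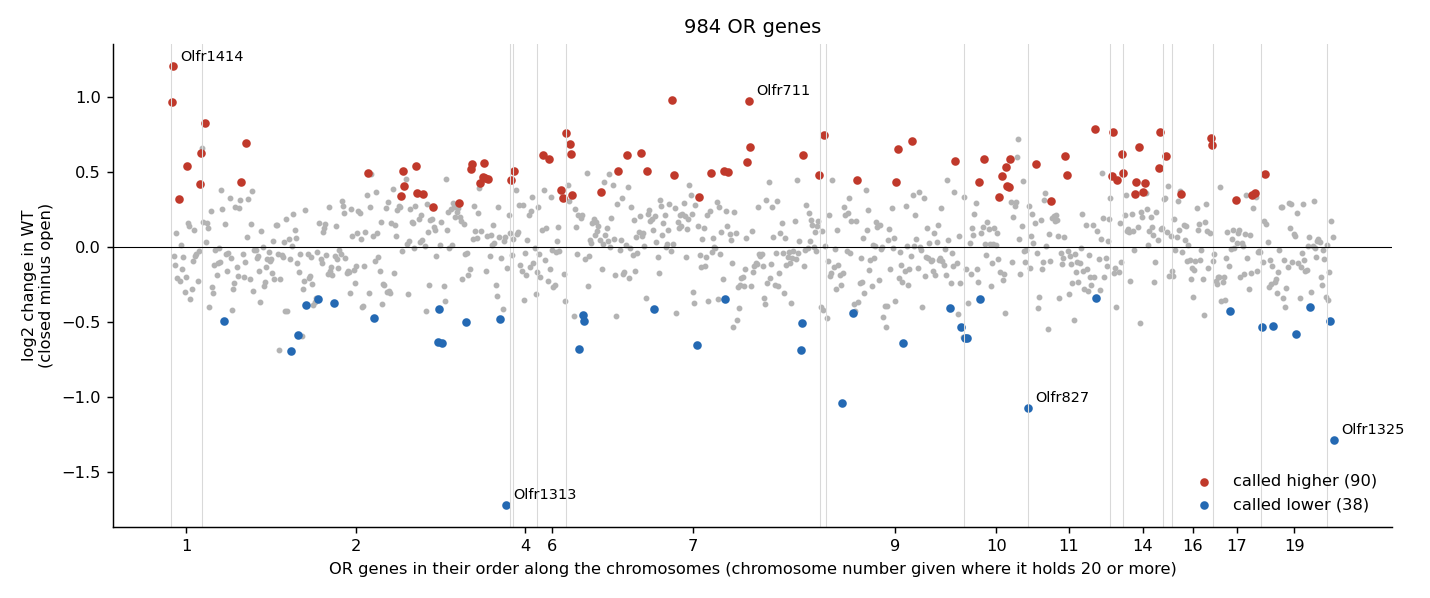
Closed minus open log2 change of WT mice (vertical axis) for 984 OR genes in their order along the chromosomes (horizontal axis; grey lines part the chromosomes). The 90 ORs called higher over ORs are red and the 38 called lower are blue, the largest changes being those of Olfr1313, Olfr1325 and Olfr1414; on chromosome 2 most points of the first blocks lie under 0 and most of the later ones above it.

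The sides of H2be-KO mice differed in largely the same directions; the comparisons share no arrays, but share the estimate of the spread. Of the 181 genes other than ORs called in WT mice, 181 had the same sign of change in H2be-KO mice, against 60.7% of all genes other than ORs. In that direction 142 were also called in H2be-KO mice and 176 had an unadjusted p under 0.05 in limma. The share of all genes that meet these 2 limits was not counted. Of the 128 ORs called, 126 had the same sign, against 76.6% of all ORs. Slc8a1 changed by -1.15, Rims3 by 1.28, Scgn by 0.83 and B830017H08Rik by 1.40 on the log2 scale in the H2be-KO. Smaller KO changes were found for Npas4 (-0.05), the Notch ligand gene Dll3 (-0.09, against -0.86 in WT) and the matrix gene Ltbp2 (-0.06, against -0.61). Among the largest falls of ORs, Olfr522 changed by -0.04, Olfr917 by 0.06 and Olfr1062 by -0.05 in the H2be-KO, against -0.68, -0.64 and -0.69 in WT mice. The difference between genotypes was called by limma for 0 of 32615 probe sets, with 1309 at an unadjusted p under 0.05, so none of these 6 genes is shown to differ. Calls in WT were lost: that of Npas4 without any WT array other than WT closed 2 (highest adjusted p 0.12), that of Dll3 without WT open 1/3 or WT closed 1/3 (highest adjusted p 0.102) and that of Ltbp2 without any array other than WT closed 3 (highest adjusted p 0.206), and over ORs that of Olfr917 without WT open 1/3 or WT closed 1 (highest adjusted p 0.069) and that of Olfr1062 without WT open 1/3 or WT closed 1/2 (highest adjusted p 0.104).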

How the data were processed

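MOE RNA of 12 samples, 3 per genotype and side, was measured on the Mouse Gene 1.0 ST array of Affymetrix, and groups were taken from the titles. The deposited values are log2 levels, 1 per probe set and array, which the authors made from the scans by sketch-quantile normalization and IterPLIER summary in Affymetrix Expression Console; the submitters' processing notes also name limma, and no versions are given in the sources used here. Quantile normalization makes the arrays alike in distribution, so a shift of all transcripts would not be seen. The table has 0 unused columns of values and no comparisons made by the authors; scanner files were not analysed here.

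Probe sets were kept where their log2 values averaged above 5 over the 12 arrays (32615; 2941 removed). Symbols are those of the platform annotation, matched by gene ID to RefSeq for gene order and promoters; of all 35556 probe sets, 21789 had 1 symbol, 1621 several and 12146 none, and a gene was represented by its brightest probe set with 1 symbol. The 4 group means were fitted over the 12 arrays with limma 3.58.1 (lmFit and eBayes, R 4.3.3), without pairing, and the closed minus open contrast of WT mice was adjusted by Benjamini-Hochberg over all probe sets kept, or over the 984 ORs. Number and spread of the arrays set the precision; arrays give no read depth. The fit was checked on simulated data.

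By rule, the text names the 15 largest rises and 15 largest falls among called genes other than ORs and the 10 of each among ORs, where the sides do not overlap, called members of the gene lists (up to 5, or the 2 of smallest p), and Omp, Cnga2, Adcy3, Gap43, H2be, Nrp1, Sema3a and 5 ORs. Members, lists and tests were chosen with earlier results of these data known. Alternatives were 2 other filters, WT arrays alone, a replicate block, trend and robust fitting, array weights, quantile normalization, median centring, other probe set and adjustment rules, and each array left out in turn. Tables and plots were made with Python 3.11.15, pandas 2.3.3, numpy 2.4.6 and matplotlib 3.10.9.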

Additional observations from a re-analysis of the deposited data

How the results depend on the processing

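Counts are given as higher and lower on the closed side, by limma. Where the counts moved by more than 1.5 times, the cause was not tested beyond the construction of the setting. With a mean log2 level above 7, which tests fewer probe sets, 273 and 214 probe sets and 160 and 165 genes other than ORs were called. With the 6 WT arrays alone, which leaves fewer arrays for the spread, there were 23 and 13 probe sets, 16 and 9 other genes and 36 and 13 ORs. With trend and robust fitting there were 284 and 239 probe sets and 172 and 179 other genes. ORs adjusted over all probe sets numbered 37 and 11. With a replicate block there were 52 and 45 probe sets, 31 and 34 other genes and 81 and 48 ORs; equally numbered open and closed samples correlated in their deviations at -0.01, 0.17 and 0.02 in WT and at 0.05, 0.23 and 0.03 in H2be-KO mice, and as not every pair was over 0.1 the numbers were not taken to pair them. Leaving out 1 array gave 59 to 127 and 36 to 104 probe sets, 36 to 73 and 27 to 79 other genes, 52 to 88 and 19 to 38 ORs, and 0 to 1 probe sets that differed between genotypes, the 1 without WT open 1. The log2 change of Omp, -0.01, turned to 0.0146 with quantile normalization and to 0.0116 with median centring, and ran from -0.0391 to 0.0251 as arrays were left out, being 0.0251 without WT open 1 and 0.0241 without WT closed 1. No filter, array weights, quantile normalization and median centring kept each of these counts within 1.5 times. For the genes named by rule, 1915 values kept direction and side of the threshold, 172 lost the call, 9 gained one and 4, all of Omp, changed sign. With 3 pooled samples a side, a change under about 0.29 on the log2 scale was within the median 95% half-width.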
